A study of Arabidopsis thaliana with 4 samples.

Results

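The peaks described here are the places on the Arabidopsis thaliana chromosomes where DNA came down with TRB1 in the replicate 2 immunoprecipitation, taken as every row of the list deposited for that replicate. The list held 7480 peaks, out of 40669 in the 4 deposited lists together. The other lists serve as reference: 3975 peaks of replicate 1, 24219 peaks whose list is named for PePr, a peak caller for replicates, and 4995 peaks of a list named genomic. Chromatin immunoprecipitation with sequencing (ChIP-seq) was done on 14-day-old seedlings grown in long days and fixed with formaldehyde, with 4 libraries in 4 groups of 1 library each. A homozygous TRB1pro:TRB1-GFP line, in which TRB1 fused to green fluorescent protein is driven by its own promoter, was precipitated with a GFP-Trap A matrix, and wild-type (Wt/Wt) seedlings with the same matrix were its control. Wild-type seedlings were also precipitated with an anti-TRB1 antibody (5.2), beside wild-type seedlings without antibody. The design text counts the 2 approaches as the 2 replicates, so approach and replicate cannot be told apart, and the labels do not say which approach gave replicate 2. The labels do not say whether the TRB1pro:TRB1-GFP seedlings come from 1 or several transformed lines.

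TRB1 is a plant protein of the single-Myb-histone family. Its Myb-type domain binds the plant telomere repeat, and the same short repeat occurs inside the chromosome arms as the telo box, known from promoters of genes for ribosomal proteins and other parts of the translation machinery. TRB proteins are also known to bind telomerase and to help bring Polycomb repressive complexes to target genes. The title of the series puts promoters of translation genes at the centre of the study, and the sections below follow the replicate 2 peaks from those genes outwards.

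Peaks were wide and their scores spanned a large range. The median width was 1728 bp, the narrowest peak measured 903 bp and the widest 11480 bp, and together the peaks covered 15.3 Mb, or 12.9% of the chromosomes between the first and the last annotated gene. The score that the authors' deposited list gives each peak, whose scale is not stated there, ran from 87.6 to 3230, with a median of 571 and quartiles of 219 and 1579. A single value, 3100, was shared by 876 peaks, and 41 peaks lay above it. Whether these 41 are stronger than the 876 cannot be told, since the scale is not stated. Ranks and leading genes above 3100 therefore order the printed score alone. Score and width rose together (Spearman rho 0.44 over 7480 peaks, which share 1 library), and rho was 0.40 over the 6563 peaks below the shared value. Every statement on score below is therefore also partly a statement on width.

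**Figure D1:**
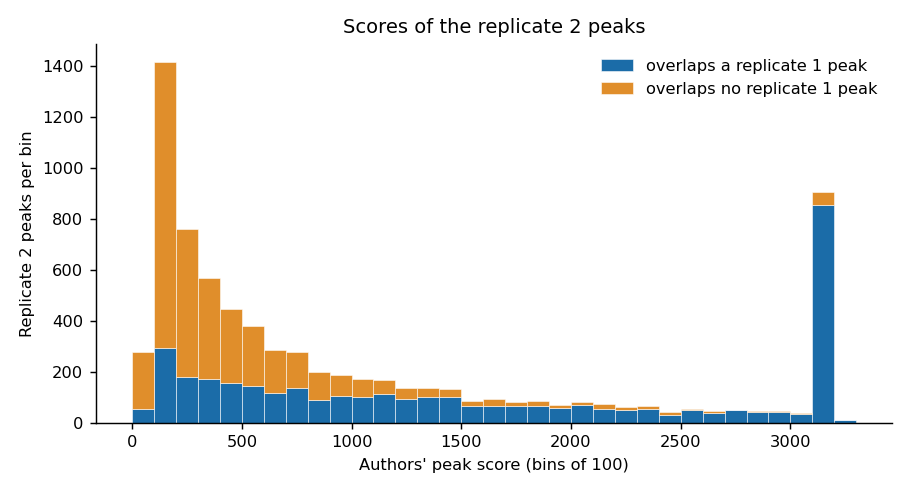
Number of replicate 2 peaks (vertical axis) in bins of 100 units of the authors' score (horizontal axis), stacked by whether the peak overlaps a replicate 1 peak. Most low-scoring peaks have no replicate 1 partner, and 825 of the 876 peaks at exactly 3100 have one.

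The lists of both replicates met at 3664 replicate 2 peaks, 49.0% of this list (95% exact interval 47.8 to 50.1), and at 3583 replicate 1 peaks, 90.1% of the other. The share with a partner depended on score. It was 20.7% (17.9 to 23.8) among the 748 peaks of the lowest score decile, 44.7% (41.1 to 48.3) in the sixth decile and 93.7% (91.7 to 95.3) in the highest. The 3816 peaks without a partner had a median score of 296, against 1374 for the others, and were narrower, with a median width of 1623 bp against 1936 bp. A PePr peak overlapped 3396 of them, or 89.0%, which is less than the 93.7% of all replicate 2 peaks and the 98.6% of those with a partner, and 420 peaks were in neither list. The list named genomic overlapped 3607 replicate 2 peaks, 48.2%. It met 98.4% of the peaks with a replicate 1 partner and 0 of the 3816 without one.

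High scores did occur without replicate 1. Of the 3816 peaks without a partner, 467 scored at least 1000 and 52 scored 3100 or more. The highest of them, at chr3:18339299-18341705, scored 3204, the 7th highest printed score of the whole replicate 2 list, and it overlapped no PePr peak either. It lay beside AT3G49460 and NACA2, which encodes an alpha subunit of the nascent polypeptide-associated complex, a chaperone at the ribosome exit. The next 9, ranked by width at a score of 3100, all overlapped a PePr peak, as did all 51 peaks at 3100 without a partner. PePr works on replicates together, so its list may draw on replicate 2 itself and is no separate support for these peaks.

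Those next 9 peaks are a part of the 51 at 3100 without a partner, taken by width. A peak of 5877 bp at chr5:955120-960996 lay at PTL (PETAL LOSS), a trihelix factor of petal development. A peak of 4378 bp at chr2:18627878-18632255 lay at AFO, a YABBY factor of leaf and flower polarity also known as FILAMENTOUS FLOWER. A peak of 3640 bp at chr1:20762722-20766361 lay at LAS (LATERAL SUPPRESSOR), a GRAS factor of shoot branching. The peak at chr5:26501580-26507258, 5679 bp wide, took in an end of SHI (SHORT INTERNODES), a RING-like zinc finger factor of the gibberellin and auxin pathways. SAP (STERILE APETALA), a flower regulator, lay at chr5:13935499-13938970. The nearest protein-coding gene of the other 4 had no symbol in the annotation.

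**Figure D2:**
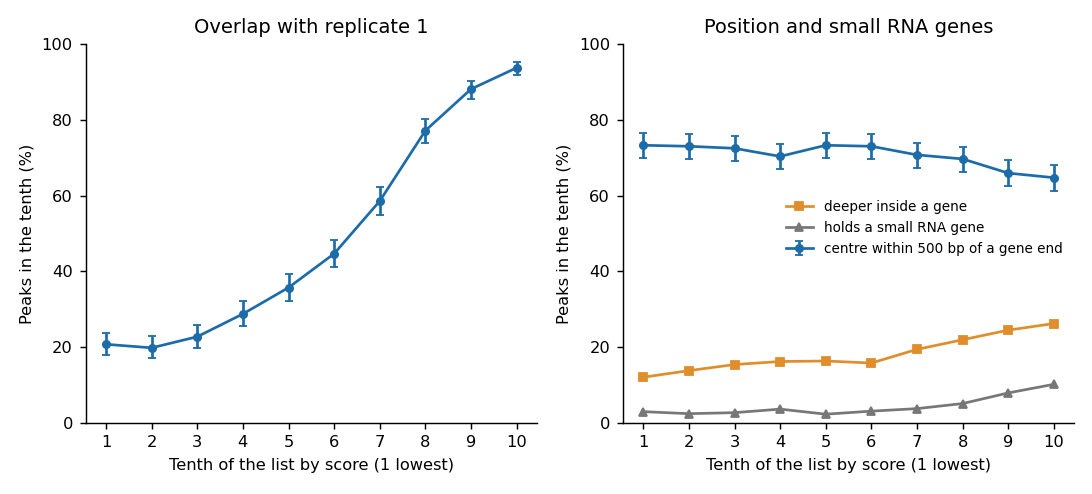
Replicate 2 peaks in 10 groups of 748 by score, lowest to highest (horizontal axes), with the percentage of each group (vertical axes) that overlaps a replicate 1 peak (left) or that has its centre within 500 bp of a gene end, has it deeper inside a gene, or holds a small RNA gene (right). Error bars are 95% exact intervals. Overlap climbs from 20.7% to 93.7% while the share near gene ends slips from 73.3% to 64.7%.

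The highest printed score, 3230, belonged to a peak at chr5:2076822-2079299, 679 bp from an end of PA2, which encodes a class III peroxidase. Besides PA2 and NACA2, genes with a symbol had an end within 500 bp of another 5 of the 10 highest-scoring peaks, among them AT-IE at chr1:11435854-11437522 (score 3222). The peak at chr3:8018865-8020486 (score 3222) had an end of RDM1, a protein of RNA-directed DNA methylation, within 500 bp, and that at chr5:4890587-4892312 (score 3203) had ends of VDAC3, an anion channel of the mitochondrial outer membrane, and of PIN8, an auxin transporter. The peak at chr1:26672239-26673826 (score 3201) lay at PGM2, a phosphoglucomutase of sugar metabolism. The peak at chr5:22108035-22110514 (score 3222) had ends of AT5G54450, AT5G54460 and CLUB, a subunit of a vesicle tethering complex. Of these 10 peaks, 9 overlapped a replicate 1 peak.

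The widest peaks spread over runs of neighbouring genes. The widest, at chr2:18775680-18787159, covered 11480 bp of a cluster of P450 enzymes (CYP76C1, CYP76C2, CYP76C3 and CYP76C4), and its score was only 375. A peak of 8145 bp at chr4:16343007-16351151 scored 3100 and covered ends of UGT73B1, UGT73B2 and UGT73B3, neighbouring glycosyltransferases of flavonoids. PIL6, a phytochrome-interacting bHLH factor, and PAO3, a polyamine oxidase, both had ends at the peak of 9181 bp at chr3:21826864-21836044. Of the 10 widest peaks, 9 overlapped a replicate 1 peak.

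Most peak centres lay near a gene end. The annotation used gives no strand, so a promoter and the far end of a gene cannot be told apart here. The centre of 5283 peaks, 70.6% (69.6 to 71.7), lay within 500 bp of an end of a protein-coding gene, and the median distance was 246 bp. Within 200 bp the share was 44.2%. The share of the chromosomes that lies within these distances of a gene end was not computed, so no enrichment at ends is shown. More centres lay on the gene side of the end than outside: 3517 peaks (47.0%) were inside a gene and near an end, and 1766 (23.6%) were outside and near. How much sequence lies on each side within 500 bp was not counted, so these counts do not measure a preference. A further 1357 (18.1%) lay deeper inside a gene and 840 (11.2%) farther outside. Centres inside a gene near an end overlapped replicate 1 less often, in 44.2% (42.5 to 45.8) of cases, than centres outside near an end, in 54.5% (52.2 to 56.9).

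**Figure D3:**
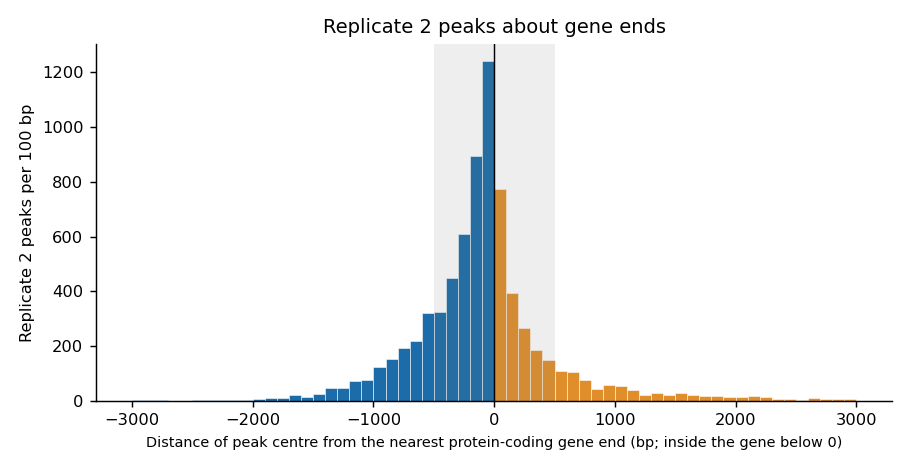
Number of replicate 2 peaks per 100 bp (vertical axis) by the distance of the peak centre from the nearest end of a protein-coding gene (horizontal axis, bp; inside the gene below 0, outside above 0). The shaded window is 500 bp on either side, which holds 70.6% of the centres; 102 centres beyond 3000 bp are not drawn.

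Position shifted with score. The share of centres near a gene end was 73.3% (69.9 to 76.4) in the lowest score decile and 64.7% (61.2 to 68.1) in the highest. Over the same deciles the share deeper inside a gene went from 12.03% to 26.2%, while the median width went from 1454 bp to 2297 bp. Peaks that overlapped a gene for a small RNA (snoRNA, snRNA, tRNA or miRNA) made up 2.94% of the lowest decile and 10.2% of the highest, 76 of 748 peaks.

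A protein-coding gene is said below to have a peak when a replicate 2 peak reached within 500 bp of either of its ends. By that rule 11362 of 27444 protein-coding genes, 41.4%, had a peak, and 22.5% had one that overlapped replicate 1. The share was 23.5% by the 3740 peaks scoring above the median, and 18.9% when a peak counted for no gene but that of the nearest end. Genes that bear a symbol in the annotation had one slightly more often, in 44.5% of cases. A peak was commonly shared between neighbours: 2674 peaks had 1 gene, 3522 had 2, 797 had 3, and 358 had none. Peaks with 3 genes had a median score of 1166, against 476 for those with 1 gene. Genes far from any neighbour had fewer: the share was 32.4% in the most isolated quartile of genes, 47.3% in the second quartile and 39.2% in the first, whose genes touch or overlap a neighbour. It was 33.1% in the quartile of shortest genes and between 43.5% and 45.3% in the other quartiles. The lists below were built from symbols and then edited by adding or dropping single genes. These edits took cytosolic ribosomal proteins from 27 to 36 genes and organellar ones from 18 to 35. Some members, such as AT2G36170 and AT5G14520, have no symbol. Many other genes of a class bear no symbol, so each list is a part of its class. Because the lists hold few genes, some of which share a peak, the exact intervals cover counting error only, and each share is to be read beside the 41.4% of all genes.

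Cytosolic ribosomal protein genes had the highest share of the 50 gene lists by the 500 bp rule. These genes encode the proteins of the ribosomes outside the organelles, and 34 of 36 listed genes had a peak, 94.4% (81.3 to 99.3), 2.28 times the share of all genes. Genes of the same spacing and length, in 16 classes by quartile of each, had one in 45.9% of cases. The ratio to all genes was 3.66 by peaks scoring above the median and 3.98 when a peak counted for the nearest end alone. Under this last setting they were not the highest list: ribosome biogenesis stood at 4.12 and translation initiation factors also at 3.98. The scores were high: the median best score of the 34 genes was 3100, against 740 over all genes with a peak, and 21 of them stood at 3100. Peaks shared with replicate 1 reached 27 of the 36 genes, 75%, against 22.5% of all genes.

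RPL23AB (AT3G55280), a protein of the large subunit, had a peak of 3533 bp at chr3:20499594-20503126, scored 3100 in replicate 2 and 1547 in replicate 1. RPL18 (AT3G05590), also of the large subunit, lay at a peak of 3381 bp, scored 3100 and 1756 in the 2 lists. RPS15 (AT1G04270), of the small subunit, and RPL23AA (AT2G39460), the near copy of RPL23AB, were at 3100 in replicate 2 and at 3100 and 2391 in replicate 1. The 2 listed genes without a peak were RPL18AA and PGY2, named here because they are the exceptions. Organellar ribosomal proteins were at the level of all genes, with 15 of 35 (42.9%, 26.3 to 60.6). The highest-scoring of these was RPS10 (AT3G22300), a mitochondrial ribosomal protein encoded in the nucleus, at 3100.

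**Figure D4:**
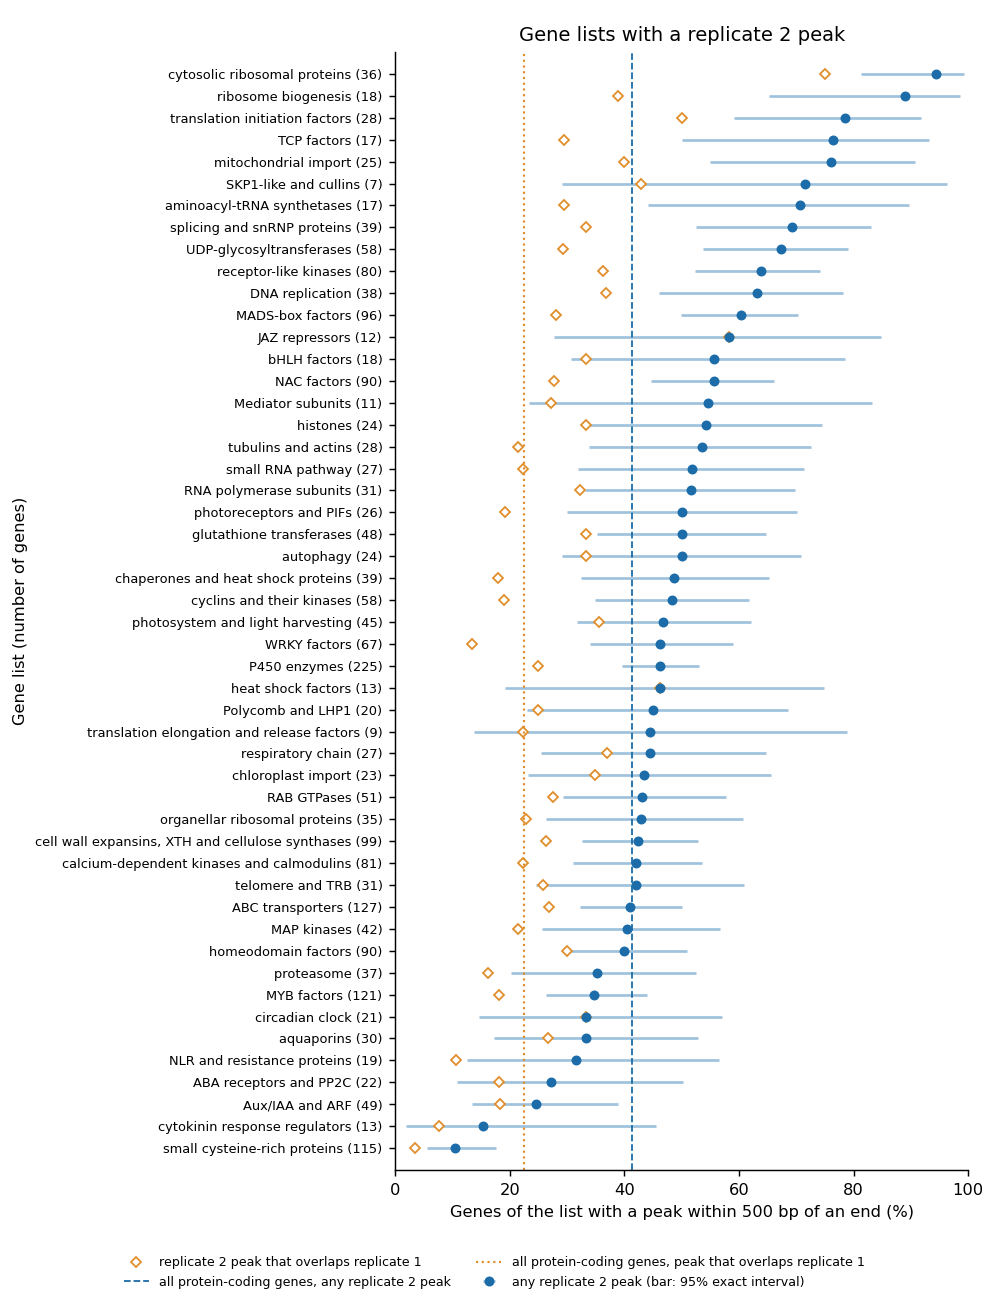
Percentage of the genes of each list (horizontal axis; list names with their number of genes on the vertical axis) with a replicate 2 peak within 500 bp of an end (filled circles with 95% exact intervals) or with such a peak that overlaps replicate 1 (open diamonds). Vertical lines mark all protein-coding genes at 41.4% and 22.5%; cytosolic ribosomal proteins stand at 94.4% and small cysteine-rich proteins at 10.4%.

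Ribosome biogenesis genes came next, with 16 of 18 (88.9%, 65.3 to 98.6), although 9 of the 16 had their peaks in replicate 2 without replicate 1. The 4 highest, all nucleolar genes, were at 3100 in replicate 2: FIB1 (fibrillarin, the methyltransferase that works with box C/D snoRNAs), NAP57 (the pseudouridine synthase of box H/ACA snoRNAs, also called dyskerin), NUC-L1 (nucleolin) and NOP56 (a core protein of box C/D particles). Their replicate 1 scores were 3100, 3100, 2988 and 3126. Translation initiation factors followed with 22 of 28 genes (78.6%, 59.0 to 91.7) and a median best score of 1759. EIF3G1, a subunit of the scaffold factor eIF3, had the widest of these peaks at 4886 bp, and EIF4A1 (the cap-complex helicase), TIF3H1 (another eIF3 subunit) and EIF4G (the cap-complex scaffold) were also at 3100.

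The other protein synthesis lists divided. Aminoacyl-tRNA synthetases, which charge tRNAs, had a peak at 12 of 17 genes (70.6%, 44.0 to 89.7), but at a median best score of 280, and 7 of the 12 were without replicate 1. SYNC1, an asparaginyl-tRNA synthetase of the cytosol, was the exception at 3100 in both lists. Elongation and release factors were near all genes with 4 of 9 (44.4%, 13.7 to 78.8). Among these were ERF1-2, a release factor, with a score of 3131, and LOS1, elongation factor 2, with 770 and no replicate 1 partner.

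Of the 50 lists, 38 stood above the share of all genes and 30 above the share of genes with a symbol, and 11 lists stood at 1.5 times all genes or more. Among the lists outside translation, mitochondrial import reached 19 of 25 genes (76.0%, 54.9 to 90.6). Every one of its 13 listed TIM genes, for translocases of the inner membrane and their small partners, had a peak, and 7 of the 13 had one shared with replicate 1. TIM17-1 (a channel subunit), TIM10 (a chaperone of the intermembrane space) and TOM20-2 (a receptor of the outer membrane) were at 3100. Chloroplast import, by comparison, stood at 10 of 23 (43.5%, 23.2 to 65.5), with TIC110 of the inner envelope at 3100. Photosystem and light-harvesting genes stood at 21 of 45 (46.7%, 31.7 to 62.1), and 16 of the 21 had a peak shared with replicate 1, among them PSAK and PSAH2 of photosystem I and PSBO2 of the oxygen-evolving complex, all at 3100 in both lists.

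Splicing and snRNP proteins had a peak at 27 of 39 genes (69.2%, 52.4 to 83.0), and 9 of them reached 3100. SR34 and RSZ21 are SR-type splicing factors, PRP39 a protein of the U1 particle and SmD3 a core protein of spliceosomal particles, and all 4 were at 3100 in both replicates. The peak of PRP39 was also that of IAA10, an auxin response repressor. Genes listed by symbol under DNA replication had a peak at 24 of 38 (63.2%, 46.0 to 78.2), led by MCM10, a replication initiation factor, at 3140. The 38 include CDT1 (AT1G52827), a cadmium tolerance gene without a peak that shares its symbol with a replication factor. RNA polymerase subunits stood at 16 of 31 (51.6%, 33.1 to 69.8), led by NRPD2A, the second subunit shared by RNA polymerases IV and V, at 3100. Histones stood at 13 of 24 (54.2%, 32.8 to 74.4), with GAMMA-H2AX at 3100 in both lists and HTB11, an H2B gene, at 2589 without replicate 1. Polycomb and LHP1 genes, for repressors of developmental genes, stood at 9 of 20 (45%, 23.1 to 68.5), where EMF1 had a peak of 7373 bp at 3100 in both lists and RING1A one at 3100 without replicate 1.

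Transcription factor families differed from one another. TCP factors, which act in growth and leaf shape, had a peak at 13 of 17 genes (76.5%, 50.1 to 93.2), none of them at 3100 and led by TCP11 at 1557. MADS-box factors had one at 58 of 96 (60.4%, 49.9 to 70.3), where genes of the same spacing and length stood at 37.2%, and 19 of the 58 were at 3100. No peak shared with replicate 1 was found for 8 of the 13 TCP genes and 31 of the 58 MADS-box genes. With shared peaks alone the ratio to all genes went from 1.85 to 1.31 for TCP and from 1.46 to 1.25 for MADS-box factors. AP1 (APETALA1, of flower meristem identity) was at 3100 without replicate 1, and SEP3 (SEPALLATA3, a partner of floral organ factors) at 3100 with 1543 in replicate 1. NAC factors had a peak at 50 of 90 (55.6%, 44.7 to 66.0) and WRKY factors of defence at 31 of 67 (46.3%, 34 to 58.9). MYB factors with 42 of 121 (34.7%, 26.3 to 43.9) and homeodomain factors with 36 of 90 (40%, 29.8 to 50.9) did not stand above all genes.

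Lists of signalling and metabolism ranged from the level of all genes upwards. Calcium-dependent kinases and calmodulins, with 34 of 81 (41.98%, 31.1 to 53.5), and MAP kinases, with 17 of 42 (40.5%, 25.6 to 56.7), were at that level. Receptor-like kinases stood at 51 of 80 genes (63.7%, 52.2 to 74.2), and CRK36, a cysteine-rich receptor kinase, led them at 3172. UDP-glycosyltransferases stood at 39 of 58 (67.2%, 53.7 to 79.0), on 36 distinct peaks because neighbours such as UGT73B1 to UGT73B3 shared one. P450 enzymes were close to all genes with 104 of 225 (46.2%, 39.6 to 53.0) on 96 peaks, led by CYP704A1 at 3192. When a peak counted for the nearest end alone, the ratio to all genes went from 1.62 to 1.01 for UDP-glycosyltransferases and from 1.12 to 0.613 for P450 enzymes, and stood at 1.86 for receptor-like kinases.

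At the other end, small cysteine-rich proteins, secreted defensin-like peptides, had a peak at 12 of 115 genes (10.4%, 5.5 to 17.5). These genes are short, and genes of the same spacing and length had one in 29.5% of cases. SCRL23 was the highest of them at 2969, and PDF1.2c, a plant defensin, followed at 1342 without replicate 1. Genes listed by symbol as subunits of the proteasome, which degrades proteins, had a peak at 13 of 37 (35.1%, 20.2 to 52.5), led by RPN1B at 3100. The 13 include PAB2 (AT4G34110), a poly(A)-binding protein gene that shares its symbol with a proteasome subunit. Aux/IAA and ARF genes of the auxin response had a peak at 12 of 49 (24.5%, 13.3 to 38.9), led by ARF6 at 3115. Cytokinin response genes had one at 2 of 13 (15.4%, 1.9 to 45.4), WOL, a cytokinin receptor, at 524 and ARR15, a response regulator, at 173. ABA receptors and their PP2C phosphatases had one at 6 of 22 (27.3%, 10.7 to 50.2). When a peak counted for the nearest end alone, the ratio of small cysteine-rich proteins to all genes went from 0.252 to 0.0461, that of the auxin list from 0.592 to 0.757, and no gene of the cytokinin and ABA lists was left with a peak.

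Among the genes of a list with a peak, the share that had none shared with replicate 1 varied as well. Of all genes with a peak, 45.6% had none that overlapped replicate 1. Among WRKY factors this held for 22 of the 31 genes with a peak (71.0%), WRKY48 and WRKY13 at 3100 and WRKY6 at 2770 among them. Among chaperones and heat shock proteins it held for 12 of 19 (63.2%), and among cyclins and their kinases for 17 of 28 (60.7%). It held for 0 of 7 JAZ repressors of jasmonate signalling, 0 of 7 clock genes and 0 of 6 heat shock factors, for 2 of 12 respiratory chain genes and for 7 of 34 cytosolic ribosomal protein genes. A count of 0 allows up to 3 genes, so among 6 or 7 genes it hardly differs from the 45.6% of all genes. The lists named here were picked for high or low shares after the values were seen. JAZ7 and JAZ10, the clock genes PRR3 and GI, and the heat shock factors HSFA1E and HSFA3 were all at 3100 in replicate 2. The peak of GI, at chr1:8067112-8068637, also reached PFL, a cytosolic ribosomal protein gene, so the same peak counts for both lists.

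Genes grouped only by the letters of their symbol gave 172 families of 10 or more genes, with a median share of 41.6% and quartiles of 30.0% and 55.6%. Beside the TIM genes, CHX cation exchangers stood at 18 of 23 and PHT phosphate transporters at 14 of 18. The lowest were the ADF actin-depolymerising factors with 0 of 11, a count that allows a share of up to 27.3%, and the MLP genes with 0 of 10, which allows up to 30.0%. LCR defensin-like genes stood at 6 of 80, UMAMIT amino acid transporters at 5 of 44 and SAUR auxin-response genes at 1 of 16. These families were picked from the ends of the ranking after their values were seen.

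Genes of the telomere and of the TRB family itself did not stand apart, with 13 of 31 (41.9%, 24.5 to 60.9). TRB1 had a peak at chr1:18496109-18497881, 1773 bp wide and at 3100 in both replicates, whereas TRB2 and TRB3, its close relatives, had none. The TRB1pro:TRB1-GFP line carries TRB1 sequence in its transgene in addition to the native gene, and the part of the transgene in this peak was not tested. WHY1, a single-stranded DNA-binding Whirly protein, scored 3097, and NBS1, of the break-repair complex, 2035. Of the TRFL genes, which encode telomere-repeat-binding-factor-like Myb proteins, TRFL5 (1487), TRFL4 (1392), TRFL10 (816), TRFL3 (635), TRFL2 (563), TRFL7 (327) and TRFL9 (120) had a peak, and TRFL1, TRFL6 and TRFL8 had none. STN1, a telomere capping protein, scored 524, ATM, a damage-signalling kinase, 439, and TRP1, a telomere-repeat-binding protein, 228. No peak reached within 500 bp of an end of TERT, the catalytic subunit of telomerase, the end-protection genes AtPOT1a, AtPOT1b and CTC1, the repair genes KU70, KU80, RAD50, MRE11 and ATR, or TBP1, TAC1, WHY3 and MDO1.

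Among genes that make no protein, a gene counts when it overlaps a peak, as 37.4% of protein-coding genes did. Of 287 snoRNA genes, whose RNAs guide the modification of ribosomal RNA, 217 overlapped a peak, 75.6% (70.2 to 80.5), although their median length was 92 bp. Their midpoints lay in a peak in 73.2% of cases, where the peaks cover 12.9% of the chromosomes, which is 5.69 times the covered share. These genes often stand in clusters: the 217 genes lay in 100 peaks, 61 of which held 2 or more of them. The median score of the 100 peaks was 3100, 85 of them overlapped replicate 1, and 56 had their centre within 500 bp of a protein-coding gene end. A peak at chr1:10299376-10300904 held 5 snoRNA genes at 3100, and one at chr2:18972534-18974096 held 5 at 2788.

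**Figure D5:**
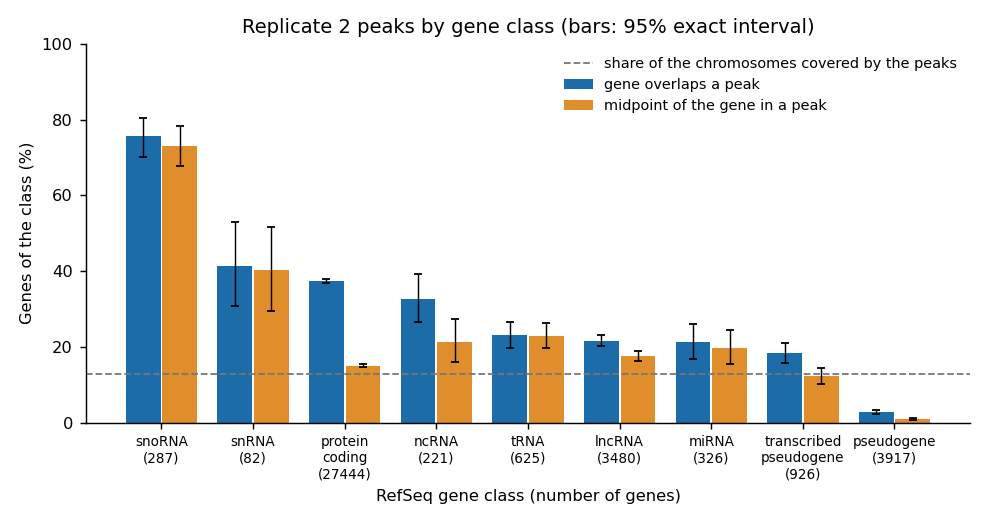
Percentage of the genes of each RefSeq class (vertical axis; classes with their number of genes on the horizontal axis) that overlap a replicate 2 peak (first bar) or whose midpoint lies in one (second bar), with 95% exact intervals and a dashed line at the 12.9% of the chromosomes that the peaks cover. The snoRNA class stands at 75.6% and 73.2%, pseudogenes at 2.71% and 0.919%.

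Among the other small RNA classes, 34 of 82 snRNA genes of the spliceosome overlapped a peak (41.5%, 30.7 to 52.9), of which 11 (32.4%) had a peak shared with replicate 1, against 53.6% of the protein-coding genes that overlapped a peak. Their median best score was 514, against 725 for those protein-coding genes. For tRNA genes the count was 144 of 625 (23.04%, 19.8 to 26.5), almost all alone in their peak, since the 144 genes lay in 142 peaks. Their midpoints lay in a peak 1.78 times as often as the covered share. For miRNA genes it was 69 of 326 (21.2%, 16.9 to 26.0), and for long non-coding RNA genes 753 of 3480 (21.6%, 20.3 to 23.04). Overlap is easier to meet for long genes, and protein-coding genes had a median length of 2078 bp, against 343 bp for long non-coding RNA genes. By midpoint the order was reversed. Protein-coding genes stood at 1.17 times the covered share, below snRNA (3.13), tRNA (1.78), miRNA (1.53) and long non-coding RNA genes (1.36). Pseudogenes were almost empty of peaks, with 106 of 3917 (2.71%, 2.22 to 3.26) and midpoints in a peak at 0.0714 times the covered share, whereas pseudogenes with a transcript reached 169 of 926 (18.3%, 15.8 to 20.9). Of the 3917 pseudogenes, 3196 lay in the 31 bins of 1 Mb with the fewest protein-coding genes, which held 648 peaks, 8.66% of the list. Whether the low share goes with the class or with its place on the chromosomes was not tested.

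Peaks followed genes along the chromosomes. Chromosomes 1 to 5 held 1959, 1077, 1539, 1178 and 1727 peaks, which is 27.4, 24.9, 28.2, 28.2 and 27.3 peaks per 100 protein-coding genes. Chromosome 2 was thus the lowest and 11.1% of it was covered, against 12.8% to 13.5% of the others. The share overlapping replicate 1 ranged only from 47.8% on chromosome 3 to 50.9% on chromosome 1. Over 121 bins of 1 Mb the number of peaks rose with the number of protein-coding genes (Spearman rho 0.88) and fell with the number of pseudogenes (rho -0.80); neighbouring bins share their surroundings, so these are descriptions of 1 list. The 31 bins with the fewest genes held 20.4 peaks per 100 genes and the 30 bins with the most held 29.7, so peaks per gene also differed with the number of genes in the bin. One bin, with 25 genes, had no peak.

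At the outermost positions, chromosome 3 began with a peak at chr3:2-1065, from its second base, with a score of 292 and no replicate 1 partner. The first peaks of the other chromosomes began farther in, at chr1:2467-4718 beside NAC001 (score 560), chr2:51887-53392 (1101), chr4:12747-14276 (359) and chr5:21644-23095 beside BSK10 (239). The sequence under these peaks, telomere repeats included, was not analysed here.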

How the data were processed

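The authors aligned and processed the reads before deposit; the submitters' processing notes name Bowtie2 2.2.2, SAMtools, bedtools and MACS and the builds TAIR9 and TAIR10, without saying which build or threshold each list used. The deposited lists give chromosome, start and end, and for each replicate a score per peak, which is the authors' own; its scale, its control and the read depth behind it are not stated. No column holds values of a single sample. Peaks were placed against RefSeq genes (TAIR10.1 assembly, names and classes only), in Python 3.11.15 with pandas and SciPy. Overlap means at least 1 bp. Named genes are up to 4 of each list by highest-scoring peak, those at the 10 highest-scoring, 10 highest-scoring without replicate 1 and 10 widest peaks, and all telomere and TRB genes. The members and lists were chosen with earlier results of these data known. With 1 library per group no test was possible: shares carry 95% exact (Clopper-Pearson) intervals, which cover counting error only. The interval functions were tested on simulated data. A planned search for the telo box in promoters was not run.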

Additional observations from a re-analysis of the deposited data

How the results depend on the processing

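The overlap with replicate 1 was 44.9% when at least 50% of both peaks had to be shared, 35.7% for centres within 200 bp and 72.4% for the 3740 peaks scoring above the median. Peaks near gene ends were 44.2% at 200 bp, 89.3% at 1000 bp, 68.8% above the median score and, chosen after seeing the data like the next such settings, 68.7% among peaks that overlap replicate 1. Protein-coding genes with a peak were 38.6% at 200 bp, 46.0% at 1000 bp, 23.5% above the median score and 18.9% when each peak went to the nearest gene end only. The ratio of ribosomal protein genes to all genes was 2.45 at 200 bp, 3.66 above the median score, 3.98 with the nearest end only and 3.33 for peaks that overlap replicate 1 (added). Other settings gave less than the main 2.28: 2.055 at 1000 bp and 2.12 against genes with a symbol (added). Against genes of the same spacing and length (added) the ratio was 2.057. The highest to the lowest chromosome in peaks per gene was 1.13 times, and 1.21 times above the median score. Of 6 non-coding classes, 2 stood above protein-coding genes by overlap (snoRNA and snRNA), and 1 did so by peaks above the median score. By midpoint, 5 of the 6 stood above the covered share (added). Lists above all genes numbered 34 to 36 under the other peak and window choices and 30 against genes with a symbol (added). For 12 of 49 lists the side of all genes changed with the nearest end only, and for 12 with peaks that overlap replicate 1 (added). The telo box search was not run, since no promoter sequence was at hand. No paired analysis was possible because each group holds 1 library and the lists come from no test. Read depth is unknown, so a gene without a peak is not shown to lack TRB1.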
